A study of Homo sapiens with 6 samples.

Results

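DKK3 and 9 further genes that set the strength of Wnt signalling were followed across the 6 libraries of an EIF4G2 silencing experiment: DKK1, KREMEN1, LRP5, LRP6, ZNRF3, RNF43, AXIN2, CTNNB1 and TCF7L2. These 10 genes, of 60612 in the deposited table, were taken by their symbols, each of which had 1 row. DKK3 was chosen by its fall in these same libraries, and the others were added for their place in the pathway with the results of the same comparison known. The comparison of the 10 genes between the groups is therefore a description, given without p-values, and supports nothing by itself.

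The libraries were made from poly(A) RNA of cells labelled Hep3B, a line from human hepatocellular carcinoma. In 3 libraries (siEIF4G2) EIF4G2, a translation initiation factor of the EIF4G family, had been silenced with its small interfering RNA at 50 nM, and in 3 (siNC) the cells had received a control RNA at the same dose. All 6 libraries carry the label of 1 cell line, although the protocol wording also mentions adipose material, no untreated cells are among them, and nothing in the labels says that replicates were separate cultures, so the spread between replicates may be technical. Levels are given in CPM, counts scaled to the library total with TMM factors, as mean ± SD over n = 3 libraries.

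Library totals lay between 63351653 and 72863628 counts, and 8.03% to 9.02% of them were mitochondrial. EIF4G2 itself read 178, 180 and 199.8 CPM in the siEIF4G2 libraries and 1103, 913 and 998 CPM in the siNC libraries, with no overlap. Of 12 hepatocyte markers, 7 were at 0 (AFP, ALB, APOB, APOA1, FGB, TTR, GPC3) in every library. If each count is 1 read, this allows up to 3 counts or 0.0403 to 0.0466 CPM for counting error. The nonzero counts of TF were 4 and 8, and whether a read can give more than 1 count was not tested. The 12 markers together summed to at most 0.416 CPM. The labelled liver origin was thus not visible in these transcripts. The 5 epithelial markers summed to 1977 to 2221 CPM in siEIF4G2 and 2270 to 2324 CPM in siNC, carried by the keratins KRT8 and KRT18. The other epithelial markers were low. KRT19 averaged 0.69 CPM in siEIF4G2 and 0.70 CPM in siNC, and CDH1 0.40 and 0.33 CPM. EPCAM was at 0 counts except in siNC replicate 3, with 4 counts. Of 8 fibroblast markers 5 had a mean over 1 CPM across the 6 libraries (COL1A1, COL3A1, DCN, LUM and PDGFRB), and the list summed to 623 to 660.1 CPM in siEIF4G2 and 534 to 562 CPM in siNC. The sum was carried mainly by COL3A1 (352 ± 5.07 against 275 ± 14.1 CPM). Of the 5 genes COL3A1, DCN and LUM were called higher while COL1A1 and PDGFRB were called lower. The other fibroblast markers were low. COL1A2 averaged 0.58 CPM in siEIF4G2 and 1.11 CPM in siNC, PDGFRA 0.29 and 0.49 CPM, and THY1 0.57 and 0.81 CPM. The 5 endothelial markers summed to 3.33 to 4.12 against 10.2 to 10.9 CPM, carried by CDH5, and the 5 leukocyte markers to 19.6 to 25.1 against 31.5 to 36.9 CPM, carried by CD68 with PTPRC and CD3E at 0. The endothelial and leukocyte lists had 1 gene each over 1 CPM, so their sums do not show that such cells were present. In such bulk RNA, fewer cells of a type and less RNA per cell cannot be told apart. The part of these shifts in the results below was not tested.

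Canonical Wnt signalling starts when a secreted Wnt protein joins a frizzled receptor to the co-receptor LRP5 or LRP6 at the cell surface. The destruction complex, built on the AXIN scaffolds, then stops marking beta-catenin (CTNNB1) for degradation, and beta-catenin enters the nucleus and binds TCF/LEF factors such as TCF7L2 at target genes. Dickkopf proteins are secreted: DKK1 blocks LRP5 and LRP6, with KREMEN1 as a second receptor, while DKK3 is a divergent member of the family that is not known as a strong LRP ligand. ZNRF3 and RNF43 are membrane ubiquitin ligases that remove frizzled receptors, and AXIN2 is itself a widely used beta-catenin target, so several of these genes are both regulators and readouts. In hepatocellular carcinoma, beta-catenin is among the pathway proteins most often altered by mutation.

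DKK1 is also known as a target of beta-catenin, so its promoter was searched for the core of the TCF/LEF site, TCAAAG, and for the same letters on the other strand, CTTTGA. RefSeq promoter windows (GRCh38.p14) were found for 5 of the 10 genes, CTNNB1, DKK1, LRP5, RNF43 and TCF7L2, with 8 windows between them. In the 250 bases before the start, only the DKK1 window held a match, and it held 2. Of all 35116 windows 11.2% held at least 1 match and 0.977% at least 2. The DKK1 window, chr10:52314031-52314280 on the plus strand of GRCh38.p14, is shown 5′ to 3′ because it is the only one of the 8 with a match, and its capitals mark the matches, which begin 149 and 95 bases before the start.
DKK1 promoter: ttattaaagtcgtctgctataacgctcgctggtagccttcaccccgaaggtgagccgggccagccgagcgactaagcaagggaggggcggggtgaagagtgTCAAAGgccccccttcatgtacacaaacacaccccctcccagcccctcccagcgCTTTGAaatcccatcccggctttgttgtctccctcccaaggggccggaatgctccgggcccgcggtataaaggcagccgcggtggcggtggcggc
A match is a run of letters and was not tested as a binding site.

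DKK3 was the member with the largest difference. It read 89.1, 90.3 and 85.2 CPM in siNC replicates 1, 2 and 3 and 12.6, 15.0 and 11.3 CPM in siEIF4G2 replicates 1, 2 and 3. The highest silenced library lay far under the lowest control library. The means were 88.2 ± 2.64 CPM and 13.0 ± 1.90 CPM (n = 3 each), so DKK3 was 6.80-fold lower, with a log2 fold change of -2.77 (SE 0.11). DKK1 (ENSG00000107984), the classical Dickkopf antagonist, did not follow. It read 17.6, 17.9 and 17.1 CPM in siNC and 15.8, 17.0 and 15.6 CPM in siEIF4G2, a log2 fold change of -0.12 (SE 0.07) that did not pass the threshold, although the groups did not overlap. The number of DKK3 counts per DKK1 count was accordingly 4.98 to 5.06 in the siNC libraries and 0.723 to 0.882 in the siEIF4G2 libraries. The remaining Dickkopf genes gave almost nothing: DKK2 and DKK4 were at 0 counts in every library, and DKKL1 had at most 4 counts.

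KREMEN1 (ENSG00000183762, chr22:29073035-29168333, plus strand), the Dickkopf co-receptor that helps to clear LRP6 from the surface, was higher after silencing. It read 5.44, 4.58 and 4.77 CPM in siNC and 8.38, 8.36 and 6.62 CPM in siEIF4G2, from a mean of 4.93 ± 0.45 to 7.79 ± 1.01 CPM. All 3 silenced libraries lay above all 3 controls, and the log2 fold change was 0.66 (SE 0.14), the largest rise among the 10 genes. Its relative KREMEN2 read 1.66 ± 0.29 CPM in siNC and 2.43 ± 0.52 CPM in siEIF4G2 (edgeR adjusted p = 0.114).

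**Figure D1:**
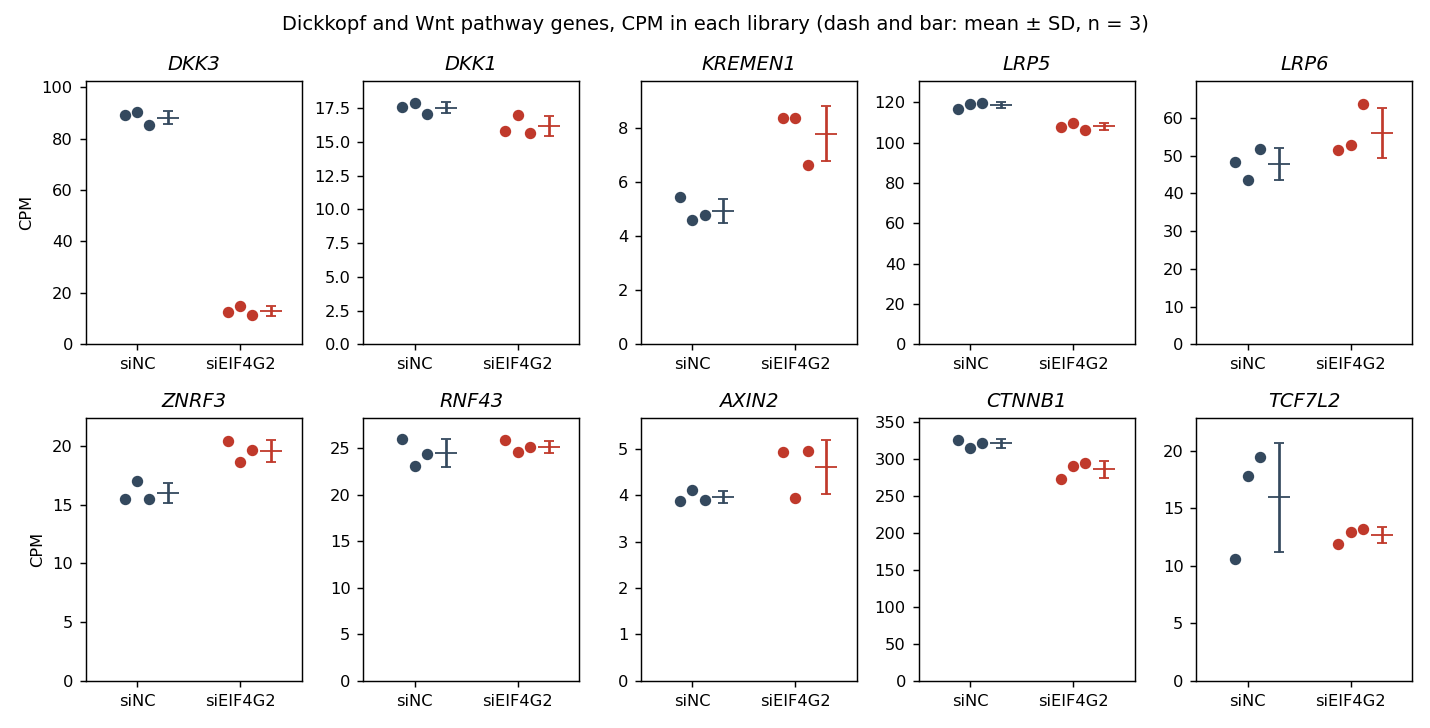
CPM (vertical axes, each from 0) of the 10 genes in the 3 siNC (dark) and 3 siEIF4G2 (red) libraries, 1 point per library, with mean ± SD beside them. DKK3 drops from 85.2 to 90.3 CPM to 11.3 to 15.0 CPM, while the other 9 genes keep most of their level. The TCF7L2 controls run from 10.6 to 19.5 CPM, on both sides of its silenced libraries.

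The DKK3 counts need care because the deposited DKK3 interval reaches into USP47, a ubiquitin-specific protease encoded on the opposite strand. Of the deposited genes shared with GENCODE release 29, 99.9% overlap their GENCODE interval on GRCh38 and 72.7% have the same start and end. DKK3 (ENSG00000050165) was placed on the minus strand at chr11:11956207-12009769 and USP47 on the plus strand at chr11:11841423-11959323. The 2 intervals share 3117 bases at their 3′ ends. In GENCODE release 29 the genes do not touch: DKK3 ends at 11963106, which is 6899 bases short of the deposited end and 3782 bases away from USP47. All 3117 shared bases are exon of USP47 in that release. The length by which the authors divided DKK3 counts came out at 11977 bases, against 5059 bases of DKK3 exon in GENCODE release 29 and 11958 bases when the extension is added.

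USP47 did not move with DKK3. Its level was 88.0 ± 3.14 CPM in siNC and 88.4 ± 7.89 CPM in siEIF4G2 with overlapping groups, and its log2 fold change was 0.005 (edgeR adjusted p = 0.965). DKK3 counts per USP47 count were 0.93 to 1.05 in siNC and 0.117 to 0.186 in siEIF4G2. The FPKM of USP47 imply a length of 13719 bases, against 11158 bases of exon in GENCODE release 29. If USP47 counts were spread evenly over 13719 bases, the shared stretch would hold 1208 to 1483 counts in the siEIF4G2 libraries. DKK3 as a whole had 727 to 989 there. In the siNC libraries the stretch would hold 1306 to 1467 counts, where DKK3 had 6007 to 6108. Over the shorter GENCODE length these even shares would be larger. How many of the DKK3 counts came from the shared stretch was not tested. The sources used here do not say that counting used strand.

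**Figure D2:**
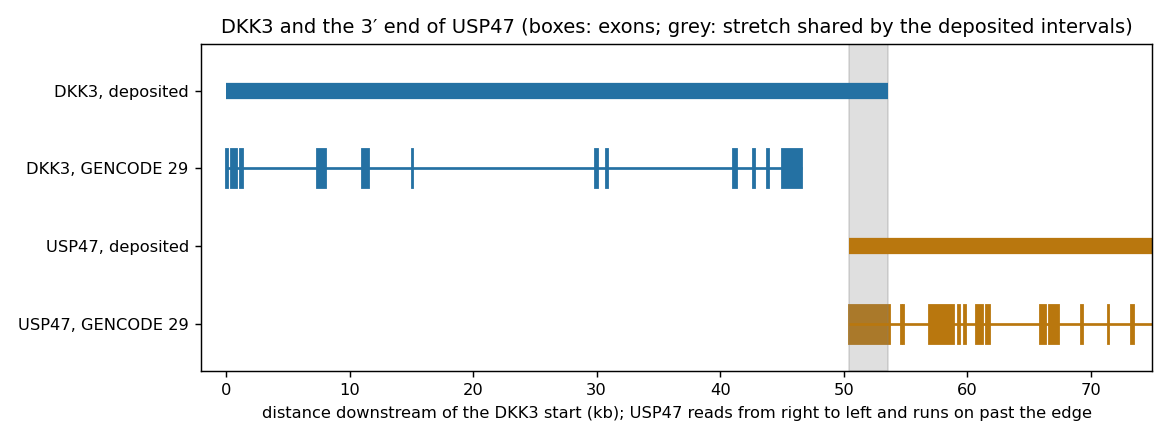
Map of DKK3 and the 3′ end of USP47, drawn to scale as distance downstream of the DKK3 start in kb: thick bars are the deposited intervals, thin lines with boxes the GENCODE release 29 genes and their exons. The grey band marks the 3117 bases shared by the deposited intervals, which lie in a USP47 exon and past the GENCODE end of DKK3.

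LRP5 (ENSG00000162337, chr11:68312591-68449275, plus strand) and LRP6 (ENSG00000070018, chr12:12116025-12267044, minus strand), the 2 Wnt co-receptors and the binding partners of DKK1, differed little. LRP5 read 117, 119 and 119.8 CPM in siNC and 108, 109.7 and 106 CPM in siEIF4G2. The groups stood apart by a narrow margin, since the replicates lay close together, and the log2 fold change was -0.14 (SE 0.04). LRP6 read 48.3, 43.4 and 51.8 CPM in siNC and 51.5, 52.7 and 63.6 CPM in siEIF4G2. Its groups overlapped, its highest value came from siEIF4G2 replicate 3, and the log2 fold change of 0.23 (SE 0.11) did not pass the threshold. LRP5 counts per LRP6 count were 2.32 to 2.75 in siNC and 1.67 to 2.10 in siEIF4G2.

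The 2 frizzled-removing ligases are ZNRF3 (ENSG00000183579, chr22:28883572-29057488, plus strand) and RNF43 (ENSG00000108375, chr17:58353676-58417595, minus strand). ZNRF3 read 15.5, 17.0 and 15.5 CPM in siNC and 20.4, 18.6 and 19.7 CPM in siEIF4G2, with every silenced library above every control and a log2 fold change of 0.29 (SE 0.08). RNF43 read 26.1, 23.1 and 24.4 CPM in siNC and 25.9, 24.6 and 25.1 CPM in siEIF4G2. The RNF43 groups overlapped throughout, and its log2 fold change was 0.04 (SE 0.07). RNF43 counts per ZNRF3 count were 1.36 to 1.69 in siNC and 1.27 to 1.32 in siEIF4G2.

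ZNRF3 and KREMEN1, the 2 genes of the set that were called higher, are next to each other on chromosome 22, 15546 bases apart and on the same strand. XBP1, the nearest tested gene before them, had a log2 fold change of 0.06 (SE 0.23), and RHBDD3, the nearest after them, one of 0.06 (SE 0.09), and neither passed (edgeR adjusted p = 0.868 and 0.657). Apart from the overlapping USP47, the nearest tested genes on either side of DKK3 were CSNK2A3 and MICAL2. CSNK2A3, 602956 bases away and beyond USP47, had a log2 fold change of 0.25 (edgeR adjusted p = 0.0687). MICAL2, 84238 bases away, had one of -0.60 (edgeR adjusted p = 0.209). Of the 18 nearest tested neighbours of the 10 genes that are no members themselves, 3 were called higher and 1 lower, where 15.9% and 17.6% of all tested genes were. Of 15 genes whose intervals overlap a member, USP47 was the only one that passed the filter on low values.

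Inside the cell, CTNNB1 was slightly lower and AXIN2 was not clearly changed. CTNNB1 (ENSG00000168036, chr3:41194741-41240443, plus strand), beta-catenin itself, read 326, 315 and 322 CPM in siNC and 273, 291 and 295 CPM in siEIF4G2. The groups did not overlap, and the log2 fold change was -0.17 (SE 0.04). AXIN2 (ENSG00000168646, chr17:65528563-65561648, minus strand), the inducible scaffold of the destruction complex, read 3.88, 4.11 and 3.89 CPM in siNC and 4.93, 3.94 and 4.94 CPM in siEIF4G2. Its siEIF4G2 replicate 2 lay among the controls, and the log2 fold change of 0.22 (SE 0.13) did not pass.

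TCF7L2 (ENSG00000148737, chr10:112950247-113167678, plus strand), the DNA-binding partner of beta-catenin, was uneven among the controls. It read 10.6, 17.9 and 19.5 CPM in siNC replicates 1, 2 and 3, against 11.9, 12.9 and 13.2 CPM in siEIF4G2. The siNC replicate 1 lay under all silenced libraries and the other two controls above them, and the log2 fold change was -0.33 (SE 0.23), not past the threshold. Without siNC replicate 1 it was -0.56 and past the threshold, so 1 control library decides how TCF7L2 is read.

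All 10 genes passed the filter on low values, at least 0.5 FPKM in at least 3 libraries. With edgeR's quasi-likelihood test over 13748 genes and an adjusted p of 0.05, 5 of the 10 passed, 2 higher (KREMEN1 and ZNRF3) and 3 lower (DKK3, LRP5 and CTNNB1), or 2 and 2 when scaled by library totals alone. Over all tested genes 33.4% passed, 15.9% higher and 17.6% lower. The groups did not overlap for 6 of the 10 genes and for 50.6% of all tested genes. The median log2 fold change was -0.04 over the 10 genes and 0.007 over all tested genes. Since the genes were taken with this comparison known, nothing is read from these counts.

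Under other settings the same values were called more or less often, which describes the threshold and adds no support, since the genes were chosen on these libraries. DKK3 passed in each of 15 alternative analyses, with log2 fold changes between -2.89 and -1.90. KREMEN1 passed in 13 of the 14 alternatives that tested it and was missed without siNC replicate 2, where its log2 fold change was 0.61. ZNRF3 passed in 9 of 15, CTNNB1 in 7 and LRP5 in 4, always in the same direction, and LRP5 was missed whichever single library was left out. The number of called members was 2 without siEIF4G2 replicate 1, siNC replicate 2 or siNC replicate 3, and 3 without siEIF4G2 replicate 3 or siNC replicate 1.

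**Figure D3:**
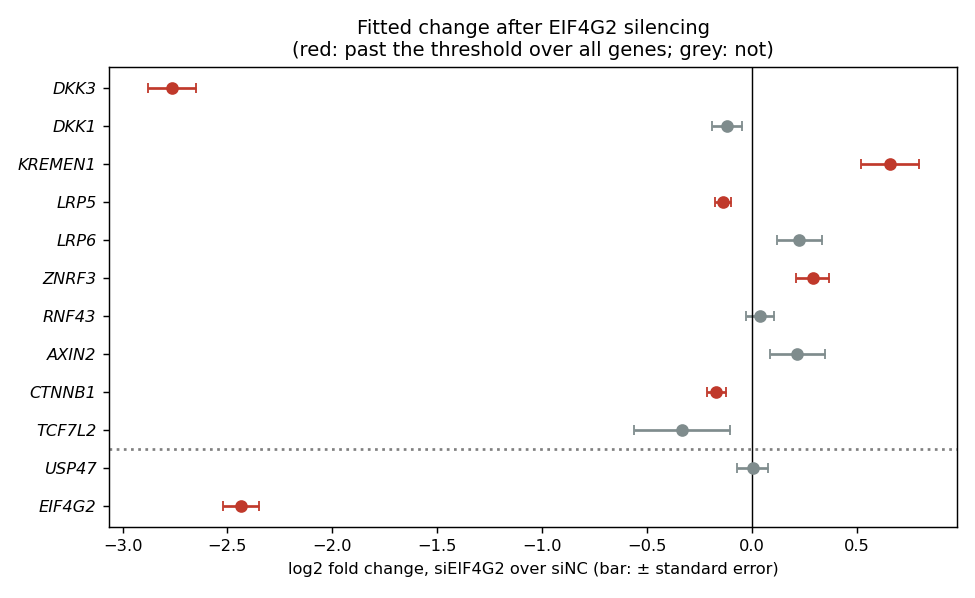
Fitted log2 fold change of siEIF4G2 over siNC (horizontal axis) with standard errors for the 10 genes and, under the dotted line, USP47 and EIF4G2. DKK3 at -2.77 stands beside the silenced EIF4G2 at -2.44, while the other 9 genes lie between -0.33 and 0.66 and USP47 lies at 0.

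Levels of different genes can be compared only per length, as FPKM, in which counts are divided by transcript length and by library size. In siNC the order from high to low was CTNNB1 (22.7 ± 0.34 FPKM), LRP5 (15.9 ± 0.26), DKK1 (6.54 ± 0.15), DKK3 (6.11 ± 0.17), LRP6 (3.82 ± 0.34), RNF43 (3.21 ± 0.18), TCF7L2 (1.95 ± 0.59), ZNRF3 (1.89 ± 0.11), AXIN2 (0.62 ± 0.02) and KREMEN1 (0.51 ± 0.05). Only the neighbours TCF7L2 and ZNRF3 had overlapping replicates. In siEIF4G2 DKK3 came eighth at 0.91 ± 0.12 FPKM, with replicates overlapping those of KREMEN1 (0.82 ± 0.10 FPKM), which in turn overlapped those of AXIN2 (0.74 ± 0.10 FPKM).

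The place of DKK3 in that order depends on its length. For 8 of the other 9 genes the length behind the deposited FPKM was 0.985 to 1.01 times the exon length in GENCODE release 29, and for RNF43 it was 0.844 times, but for DKK3 it was 2.37 times. On the GENCODE length DKK3 stood at 17.4 ± 0.52 CPM per kilobase in siNC and DKK1 at 7.96 ± 0.18. DKK3 was then 2.19 times DKK1, whereas it was 0.934 times DKK1 in FPKM. The counts were the deposited ones and were not recounted on the GENCODE genes. Any DKK3 counts from outside its GENCODE exons would make its value per GENCODE length too high. In siEIF4G2 DKK3 was at 2.56 ± 0.38 and DKK1 at 7.33 ± 0.34 CPM per kilobase, with DKK3 below DKK1 on both scales. The fold change of DKK3 between the groups does not use a length.

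**Figure D4:**
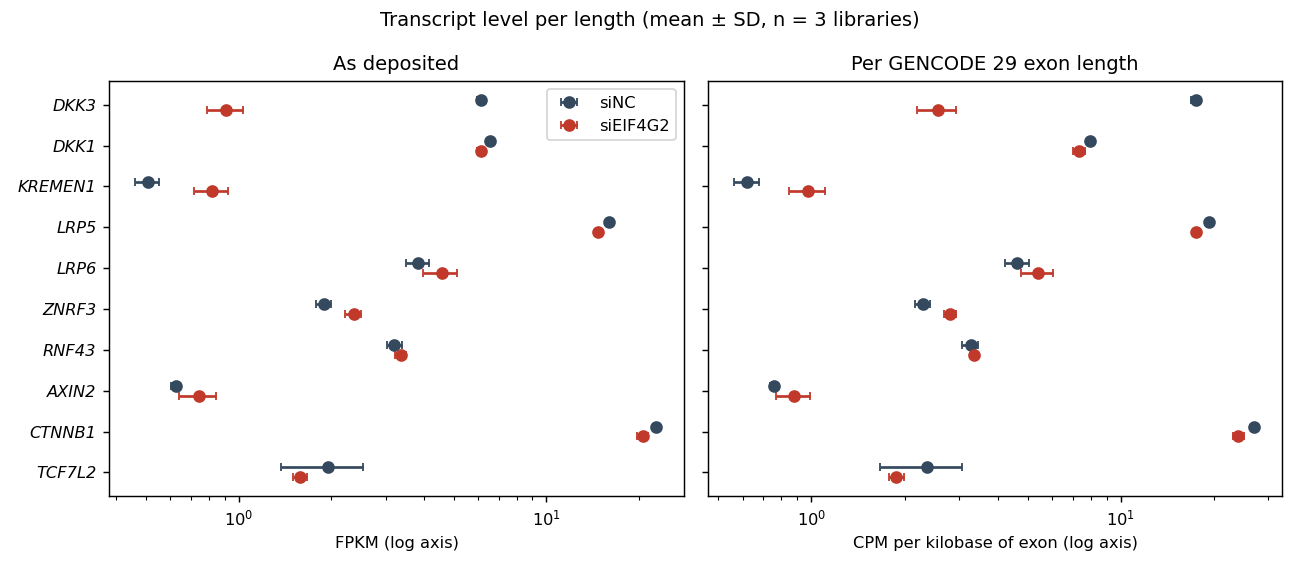
Level per length of the 10 genes (log axes, mean ± SD, n = 3) in siNC (dark) and siEIF4G2 (red), as deposited FPKM on the left and as CPM per kilobase of GENCODE release 29 exon on the right. DKK3 in siNC lies just under DKK1 on the left (6.11 and 6.54 FPKM) and above it on the right (17.4 and 7.96 CPM per kilobase). The right side uses the deposited counts, not recounted on the GENCODE genes, so DKK3 may stand too high there.

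The genes whose profile over the 6 libraries was closest to that of DKK3 were sought among the other 13747 tested genes, by the root mean square difference of log2 CPM centred on each gene's mean. They were CLCA2, a protein of the calcium-activated chloride channel regulator family (0.215), EIF4G2 itself, PSG5, a pregnancy-specific glycoprotein, and ACTA2, smooth muscle actin (0.235 each), and DIRAS1, a small GTPase of the Ras family (0.245). Their log2 fold changes were -3.01 for CLCA2, -2.44 for EIF4G2, -2.68 for PSG5, -2.47 for ACTA2 and -3.29 for DIRAS1. As the libraries fall into 2 groups, this likeness mostly measures a fall of similar size. PSG5 may share reads with its close paralogs, and the ACTA2 interval overlaps FAS and STAMBPL1.

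The rest of the pathway was read from 194 further genes in 11 lists. Of these, 66 were under the filter, 20 of them at 0 counts in every library, and 128 were tested. With edgeR, 25 rose, 23 fell and 80 did not pass, so 37.5% passed against 33.4% of all tested genes, and the median log2 fold change was 0.025. Single lists leaned either way, but none was tested as a list. Counts within each list are to be read beside the shares over all tested genes, 15.9% higher and 17.6% lower.

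Of 19 Wnt ligands 7 were tested, 4 of which fell and 2 rose. WNT5A, the ligand best known for beta-catenin-independent signalling, fell from 121.8 ± 3.23 to 94.8 ± 3.06 CPM (log2 fold change -0.36, SE 0.05; edgeR adjusted p = 0.00257). WNT6 fell from 2.80 ± 0.21 to 1.37 ± 0.13 CPM (edgeR adjusted p = 0.00382), and WNT10B rose from 5.67 ± 0.49 to 9.83 ± 1.58 CPM (edgeR adjusted p = 0.0103). The number of called ligands was 3 without siEIF4G2 replicate 1, siNC replicate 2 or siNC replicate 3. PORCN, the acyltransferase that every Wnt needs for secretion, fell from 16.6 ± 1.86 to 10.9 ± 0.80 CPM (edgeR adjusted p = 0.0107). SEC22B, a vesicle transport protein, fell from 132.0 ± 2.54 to 114.9 ± 3.95 CPM (edgeR adjusted p = 0.0170), a call that was lost without siEIF4G2 replicate 1, siNC replicate 1 or siNC replicate 3. The other 4 tested secretion genes did not pass.

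Of 16 tested frizzled and other Wnt receptors, 4 fell and 3 rose. FZD2 fell from 51.5 ± 0.46 to 35.8 ± 0.91 CPM (log2 fold change -0.52, SE 0.05; edgeR adjusted p = 0.00093). FZD10 fell from 31.1 ± 2.20 to 17.4 ± 1.58 CPM (edgeR adjusted p = 0.00174). PTK7, a pseudokinase co-receptor, fell from 56.6 ± 2.23 to 37.3 ± 1.85 CPM (edgeR adjusted p = 0.00126). Without siEIF4G2 replicate 1 or 3, 4 receptors were called. Of the 21 other secreted or surface antagonists only 5 were tested, and 2 of them fell: TPBG, a membrane inhibitor of Wnt signalling, from 72.1 ± 4.66 to 50.0 ± 1.24 CPM and TRABD2A, which cleaves Wnt proteins, from 61.1 ± 1.67 to 48.7 ± 3.6 CPM (edgeR adjusted p = 0.00204 and 0.0136). Of 7 R-spondins and receptors, which protect frizzled from ZNRF3 and RNF43, RSPO3 and LGR4 were tested and neither passed, whether by edgeR (adjusted p = 0.907 and 0.346), DESeq2 or limma, and 0 of them had an unadjusted edgeR p under 0.05. RSPO3 read 7.91 ± 0.15 CPM in siNC and 7.80 ± 0.94 CPM in siEIF4G2, and LGR4 39.2 ± 0.87 and 28.4 ± 12.6 CPM.

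Downstream of the receptors, 5 of 13 tested genes around dishevelled rose and 1 fell. CCDC88C, a dishevelled-binding protein also called DAPLE, rose from 11.1 ± 0.91 to 26.1 ± 1.25 CPM (log2 fold change 1.24, edgeR adjusted p = 0.000481). DIXDC1, which binds dishevelled through its DIX domain, rose from 35.5 ± 2.14 to 50.6 ± 4.25 CPM, and CSNK1D, a casein kinase, fell from 136.0 ± 0.70 to 111.7 ± 3.24 CPM (edgeR adjusted p = 0.00585 and 0.0038). Of 16 tested genes of the destruction complex 2 rose. PPP2R5A, a regulatory subunit of protein phosphatase 2A, went from 51.7 ± 0.51 to 69.9 ± 2.33 CPM (edgeR adjusted p = 0.00151). SIAH1, a ubiquitin ligase for beta-catenin, had a log2 fold change of 0.39 (edgeR adjusted p = 0.0378) and passed in 1 of the 6 analyses that leave out a library, the one without siNC replicate 1.

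Among nuclear partners of beta-catenin, 7 of 21 tested genes rose and 2 fell. TBL1X, a transcriptional cofactor, rose from 84.3 ± 0.67 to 121.9 ± 3.22 CPM (edgeR adjusted p = 0.000563). BCL9 and PYGO2, which link beta-catenin to chromatin, rose from 29.6 ± 0.72 to 44.2 ± 3.10 CPM and from 62.96 ± 2.18 to 82.3 ± 2.39 CPM (edgeR adjusted p = 0.00208 and 0.0027). Of 34 genes listed as beta-catenin targets, 17 were tested and 17 were under the filter, 4 of them at 0 counts in every library. Of the tested targets 6 fell and 1 rose, where 17.6% of all tested genes fell and 15.9% rose. Nothing is known here of the targets under the filter. The list leaves out the members, so AXIN2 (log2 fold change 0.22) and DKK1 (-0.12), neither past the threshold, are not counted in it. BIRC5 was the gene that rose, from 17.4 ± 3.35 to 28.6 ± 1.17 CPM (edgeR adjusted p = 0.0116). ID2 fell from 49.6 ± 2.51 to 33.6 ± 1.46 CPM, VEGFA from 315 ± 5.65 to 254 ± 6.30 CPM and PLAUR, the urokinase receptor, from 81.0 ± 3.38 to 62.5 ± 2.23 CPM (edgeR adjusted p = 0.00181, 0.00257 and 0.00393). These genes also answer to other pathways. Of 5 tested adhesion partners JUP, plakoglobin, a close relative of beta-catenin, fell from 623 ± 37.3 to 409 ± 17.9 CPM (edgeR adjusted p = 0.00111).

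In the planar cell polarity and calcium branch, 5 of 21 tested genes rose and 1 fell. RAC1, a small GTPase, rose from 180.8 ± 1.68 to 282 ± 14.4 CPM, and MAPK9, a JNK kinase, from 62.3 ± 0.77 to 91.4 ± 1.44 CPM (edgeR adjusted p = 0.000542 and 0.000501). CAMK2D, a calcium-dependent kinase, fell from 14.5 ± 0.93 to 8.53 ± 0.72 CPM (edgeR adjusted p = 0.0033).

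**Figure D5:**
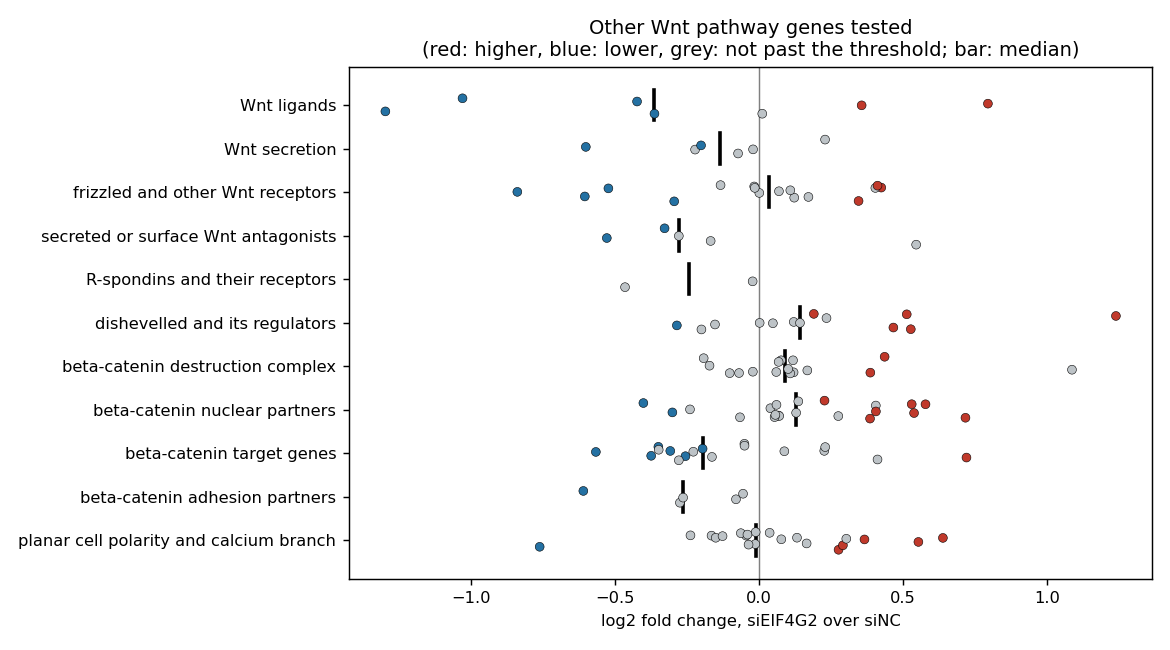
Log2 fold change of siEIF4G2 over siNC for each tested gene of the 11 pathway lists, 1 point per gene (red higher, blue lower, grey not past the threshold) with the list median as a black bar. Points lie on both sides of 0 in most lists, and no gene reaches the -2.77 of DKK3.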

How the data were processed

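The authors deposited 1 table of 60612 genes with an estimated count, rounded to whole numbers, and an FPKM value per library, per the file headers. Over 634 genes with 1 to 10 counts, the deposited count and FPKM imply lengths that vary by a median of 22.2% between libraries, so FPKM came from unrounded estimates. HISAT2 2.0 and StringTie 1.3.0 appear in the submitters' processing notes. For build, annotation and strand use the entry is: not given in the sources used here. Of 58394 identifiers shared with GENCODE release 29, 99.9% overlapped on GRCh38 and 72.7% had the same start and end.

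The counts were tested with edgeR 4.0.16 (quasi-likelihood, TMM, group only, Benjamini-Hochberg over 13748 genes) in R 4.3.3, two-sided, on genes reaching 0.5 FPKM in 3 or more libraries. Each standard error is the size of the log2 fold change over the root of F. As no label names separate cultures, the p-values reflect library-to-library spread alone, which may be technical. Lengths behind the FPKM were scaled by 3252 genes with matching GENCODE coordinates and over 500 counts in each library. Alternatives used DESeq2 1.42.0, limma 3.58.1, other scalings and filters, a replicate block and leaving out each library. The edgeR step was tested on simulated data. Figures used Python 3.11.15 and matplotlib 3.10.9.

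The genes, lists and tests were chosen with earlier results of these data known. Named genes were all members, EIF4G2, overlapping genes that passed the filter, up to 3 called genes per list with the smallest p and the 5 most like DKK3. DKK2, DKK4, DKKL1, KREMEN2, RSPO3, LGR4, BIRC5, flanking genes, APC, CXXC5 and MYC were named after their values were seen. Intervals for counts of 0 cover counting error only.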

Additional observations from a re-analysis of the deposited data

How the results depend on the processing

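The count of called members, 5 with the analysis reported, was 2 with no filter on low values, 3 with limma on log2(FPKM + 1) or on log2(FPKM + 0.1), and 2 to 4 when a library was left out. The count over all genes (4597) and over the other pathway genes (48) stayed within 1.5 times under all 15 alternatives. Of the 11 lists, called Wnt ligands went from 6 to 3 and genes of the destruction complex from 2 to 1 with no filter, adhesion partners from 1 to 2 with DESeq2, and secretion genes from 2 to 1 on leaving out siEIF4G2 replicate 1, siNC replicate 1 or siNC replicate 3. USP47 changed sign on leaving out libraries, from -0.063 to 0.065, as did RNF43, from -0.000797 to 0.085, and neither passed in any alternative. The ratio of DKK3 to DKK1 in siNC moved from 0.934 to 2.19 with GENCODE exon lengths, an alternative chosen after seeing the data. It kept the deposited counts, which for DKK3 may include counts from outside its GENCODE exons.

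With the replicate number as a block, 2 members, 38 other pathway genes and 3736 genes in all were called. Same-numbered libraries did not deviate together (r = -0.021, 0.019 and 0.034 across genes, which are not independent), and 1 of 3 silenced libraries correlated best with its own number, so the numbers were not treated as pairs. AXIN2 and KREMEN1 had the fewest counts of the members, 259 to 624 per library, with SEs of 0.13 and 0.14. How far depth or spread between libraries sets their precision was not tested.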

Other observations

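APC, the large scaffold of the beta-catenin destruction complex, was uneven within both groups. It had 323 and 334 counts in siNC replicates 1 and 2 but 3114 in siNC replicate 3, and 1177, 2970 and 3450 counts in siEIF4G2 replicates 1, 2 and 3. The fitted log2 fold change was 1.09 with an SE of 0.98 (edgeR adjusted p = 0.437). LGR4, the R-spondin receptor, had 921 counts in siEIF4G2 replicate 2 and 2372 to 2775 counts in the other 5 libraries. TCF7L2 was low in siNC replicate 1, with 726 counts against 1196 and 1371 in the other controls. CXXC5, a dishevelled-binding protein, was low in replicate 2 of both groups, with 1171 counts in siEIF4G2 and 1303 in siNC against 3874 to 5306 in the other 4 libraries. MYC, listed as a beta-catenin target, had 12244, 1829 and 1404 counts in siEIF4G2 replicates 1, 2 and 3 and 4869, 5019 and 1053 in siNC replicates 1, 2 and 3. The siNC replicate 1 was thus low for both APC and TCF7L2, and siEIF4G2 replicate 2 for both LGR4 and CXXC5. But siNC replicate 2 was also low for APC (334 counts) and CXXC5 (1303), and not for TCF7L2 (1196) or LGR4 (2562). The cause was not tested.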
